A study of Mus musculus with 16 samples.

Results

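The regions described here are the stretches of the autosomes that carried the histone mark H3K27ac in Arid1a WT and Arid1a KO mouse liver, taken from the authors' list of called regions for 1 library of each genotype. A region counted when it lay on chromosomes 1 to 19, and a region of 1 library counted as shared when it overlapped a region of the other by at least 1 bp. This gave 115682 regions, 61992 in the WT list and 53690 in the KO list, of 261666 peaks and regions in all lists of the series. The series used chromatin immunoprecipitation and sequencing (ChIP-seq) to ask how a transcription factor, E2f4, and the marks H3K4me2 and H3K27ac were placed in regenerating liver of both genotypes. Livers were taken 40 h after partial hepatectomy, the removal of most of the organ, from mice of postnatal day 90 on a mixed C57/B6 and 129 background. Frozen tissue was fixed with 1% formaldehyde for 20 min and hepatocytes were isolated, per the labels' protocols.

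Both groups carried floxed Arid1a alleles (Arid1a Fl/Fl). The KO mice also carried Alb-cre, a Cre recombinase driven by the albumin promoter, which is active in hepatocytes and their precursors, so that other liver cells keep the gene. The labels give neither the sex of the mice nor the number of animals behind a library. With 1 library per genotype there is no replicate check of any difference below and no test was made. Where a list has no region, none passed the authors' threshold, and the mark may still have been present below it. The lists hold no read counts, so the depth is unknown, and the fold enrichment and q-value of a region are the authors' own and were used only to rank or filter the regions of each list.

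H3K27ac is acetylation of lysine 27 of histone H3, placed by the acetyltransferases CBP and p300 and removed by histone deacetylases. It is found at active promoters and enhancers, and broad stretches of it cover the most strongly expressed genes of a cell type, in hepatocytes those of albumin and other plasma proteins. Arid1a is a subunit of the SWI/SNF remodelling complex, which moves nucleosomes and is known to act at enhancers.

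The promoters below belong to genes whose starts were marked in 1 library only, with Arid1a itself for comparison, and show the starts of the genes that lead the differences below. They are from RefSeq on GRCm38.p6, whose coordinates are those of mm10, and run 5′ to 3′ on the gene's strand from 250 bp before to 50 bp after the start. Capitals mark every CG and every TATAAA. Ren1 (chr1:133350424-133350723, plus strand, the protease renin) and Cyp26b1 (chr6:84593761-84594060, minus strand, a retinoic acid hydroxylase) were marked in WT only. Cyp2b9 (chr7:26173159-26173458, plus strand) and Cyp2a4 (chr7:26306942-26307241, plus strand), which encode cytochromes P450 of steroid and drug metabolism, were marked in KO only. Arid1a (chr4:133753936-133754235, minus strand) was marked in both. A gene counts as marked from a region anywhere within 1000 bp of its start. Within the 300 bp printed, the mark covered all of Ren1 in WT, of Cyp2b9 in KO and of Arid1a in both, but 121 bp of Cyp26b1 in WT and 18 bp of Cyp2a4 in KO.
Ren1: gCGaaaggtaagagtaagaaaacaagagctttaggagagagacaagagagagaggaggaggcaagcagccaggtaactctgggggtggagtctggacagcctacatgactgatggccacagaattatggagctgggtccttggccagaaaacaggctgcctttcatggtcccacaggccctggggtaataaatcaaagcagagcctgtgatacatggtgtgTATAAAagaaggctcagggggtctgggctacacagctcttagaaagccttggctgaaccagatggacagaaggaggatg
Cyp26b1: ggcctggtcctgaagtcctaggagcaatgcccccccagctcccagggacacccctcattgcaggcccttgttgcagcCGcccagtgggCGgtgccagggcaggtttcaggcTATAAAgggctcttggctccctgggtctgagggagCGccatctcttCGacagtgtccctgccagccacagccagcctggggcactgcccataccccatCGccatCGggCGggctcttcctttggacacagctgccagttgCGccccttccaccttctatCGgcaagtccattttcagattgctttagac
Cyp2b9: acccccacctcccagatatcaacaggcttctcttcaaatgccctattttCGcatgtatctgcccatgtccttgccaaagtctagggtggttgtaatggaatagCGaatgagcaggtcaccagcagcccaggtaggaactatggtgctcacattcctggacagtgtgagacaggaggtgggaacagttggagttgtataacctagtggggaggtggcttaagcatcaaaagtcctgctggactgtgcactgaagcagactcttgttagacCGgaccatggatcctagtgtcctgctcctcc
Cyp2a4: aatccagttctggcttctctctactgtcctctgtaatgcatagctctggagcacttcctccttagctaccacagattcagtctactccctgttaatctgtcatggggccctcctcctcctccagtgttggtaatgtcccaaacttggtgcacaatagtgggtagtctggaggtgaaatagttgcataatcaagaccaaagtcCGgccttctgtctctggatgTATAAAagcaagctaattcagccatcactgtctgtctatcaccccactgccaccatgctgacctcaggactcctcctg
Arid1a: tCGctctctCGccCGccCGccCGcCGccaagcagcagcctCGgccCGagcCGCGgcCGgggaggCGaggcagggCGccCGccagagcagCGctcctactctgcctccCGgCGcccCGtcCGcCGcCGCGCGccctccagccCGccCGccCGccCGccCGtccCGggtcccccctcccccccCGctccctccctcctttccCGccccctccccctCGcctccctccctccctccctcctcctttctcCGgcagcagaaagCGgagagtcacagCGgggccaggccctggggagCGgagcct

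The Arid1a promoter held 36 CG and no TATAAA, whereas those of Ren1, Cyp26b1, Cyp2b9 and Cyp2a4 held 1, 9, 3 and 1 CG. The sequence TATAAA, looked for on both strands, was found in Ren1, Cyp26b1 and Cyp2a4. Over all promoters the median was 14 CG over the 16457 genes with a promoter entry, 21 over those marked within 1000 bp of the start in both libraries, 9 over the 267 marked in WT only, 12 over the 318 marked in KO only and 4 over those marked in neither. TATAAA was held by 13.4% of all these promoters, 7.06% of those marked in both, 12.7% in WT only, 9.43% in KO only and 22.9% in neither. TGACTCA, the AP-1 motif, was held on either strand by 4.58% of all, 3.35% of those marked in both, 7.87% of the WT-only promoters (21 of 267), 3.77% of the KO-only promoters (12 of 318) and 6.29% of those marked in neither. Genes marked in 1 library thus lay between those marked in both and in neither by CG content, and a motif match here is a description of the letters only.

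The WT and KO libraries differed in signal from the sex chromosomes, and this bears on the gene results below. On chromosome Y the WT list held 10 regions covering 9099 bp and the KO list 2 regions covering 758 bp. The Y-linked genes Ddx3y, Eif2s3y, Kdm5d and Uty were covered over 3161, 1938, 889 and 1766 bp in WT and over 0 bp each in KO. Xist, the RNA that silences an X chromosome in females, was covered over 0 bp in WT and 3536 bp in KO. In the H3K4me2 lists the 4 Y-linked genes were at 0 in both genotypes and Xist was covered over 10990 bp in WT and 10640 bp in KO. Y-linked signal in the WT library and Xist signal in the KO library of H3K27ac therefore go with the genotypes, and in this pair of libraries the sex of the animals and the loss of Arid1a cannot be told apart. The regions on X and Y enter no count below, and autosomal genes with a known sex bias are given as lists of their own.

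H3K27ac covered less of the genome in KO than in WT away from gene starts, but not at them. A region was called a gene start region when it lay within 1000 bp of an annotated start, or of either end of a gene without an annotated start. At gene starts the mark covered 46.2 Mb in 15220 WT regions and 47.2 Mb in 14603 KO regions, so that KO had 95.9% of the regions and 102% of the length. Away from gene starts it covered 64.4 Mb in 46772 WT regions and 55.0 Mb in 39087 KO regions, 83.6% of the number and 85.4% of the length. The ratio of lengths was 85.4% within 10000 bp of a gene end, 86.2% further away inside genes and 82.5% further away outside genes. Over all autosomes 111 Mb in WT stood against 102 Mb in KO (92.4%), and single chromosomes ranged from 87.4% on chromosome 18 to 95.7% on chromosome 19. KO was thus below WT on every autosome. Depth and enrichment also set how many regions pass a threshold, and their part in this difference was not tested. The H3K4me2 lists went the other way, with 65454 regions over 102 Mb in WT and 71609 over 110 Mb in KO.

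The order of the lists depended on how strong a region had to be. With a deposited −log10 q-value from 5 upward, 17295 WT and 14829 KO regions were left. From 10 upward the KO list was the longer, with 8637 regions against 7726. The length turned with it, and from 10 upward KO covered 118% of the WT length. Away from gene starts KO still had the fewer regions, 1675 against 1875. A q-value moves with depth and enrichment, so the same threshold need not select the same level of the mark in both libraries.

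Most regions were shared, and shared regions were the wide ones. Of the WT regions 65.9% (exact Clopper-Pearson 95% interval 65.6 to 66.3, over regions and for counting error only) overlapped a KO region, and of the KO regions 75.4% (75 to 75.7) overlapped a WT region. The 21110 regions called in WT alone had a median width of 494 bp against 1577 bp for the shared WT regions, and the 13224 called in KO alone had 449 bp against 1487 bp. Shared regions held 87.8% of the WT length and 92.9% of the KO length. Base by base, 77.9 Mb were marked in both libraries, which is 70.4% of the WT length, 76.2% of the KO length and 57.7% of the length marked in either. Over the whole lists the widths were alike, with a median of 1037 bp in WT (10th to 90th percentile 237 to 3965) and 1077 bp in KO (249 to 4242).

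**Figure D1:**
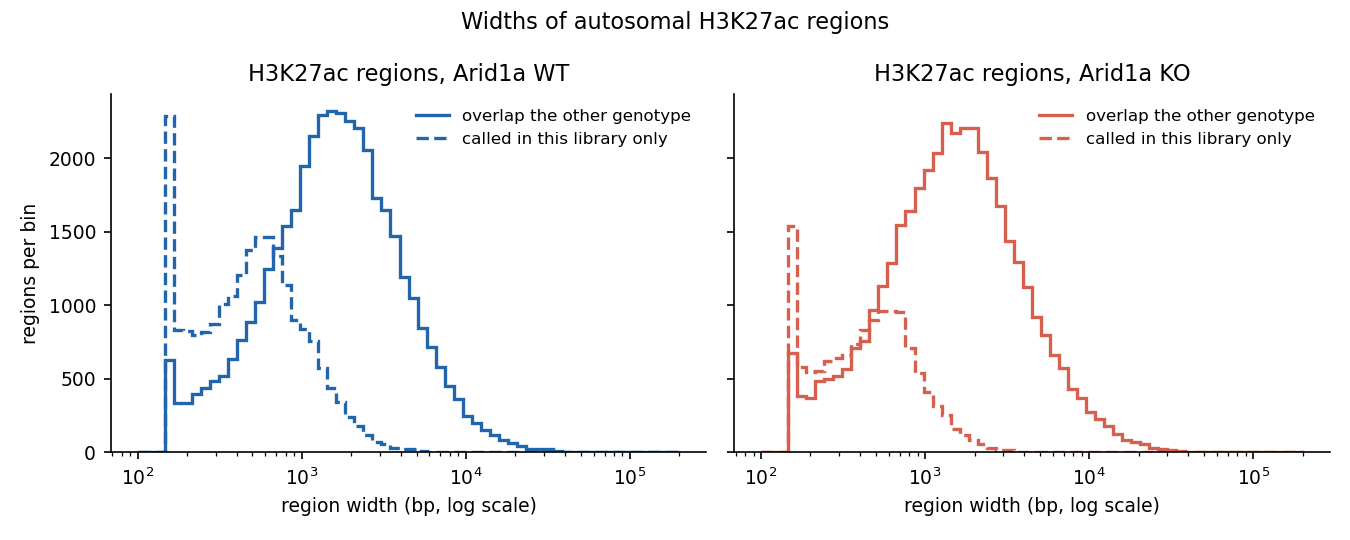
Number of autosomal H3K27ac regions (y axis) by region width in bp on a log axis, in bins of equal log width, for the WT library (left) and the KO library (right). Solid lines are regions that overlap the other genotype (medians 1577 and 1487 bp) and dashed lines those called in that library only (medians 494 and 449 bp), which lie at smaller widths.

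Gene start regions were shared far more often than any other class. At gene starts 90.0% of WT regions (89.5 to 90.4) and 92.4% of KO regions (92.0 to 92.8) overlapped the other genotype. These regions were also the widest, with medians of 1961 bp in WT and 2074 bp in KO, and they made up 24.6% and 27.2% of the lists but 41.8% and 46.2% of the marked length. Within 10000 bp of a gene end 59.5% of WT and 69.3% of KO regions were shared. Further away the shares were 56.8 and 67.5% inside genes, and 56.5 and 72.5% outside them. All 3 classes away from gene starts had median widths from 807 to 851 bp in both libraries. Shared regions numbered 40882 in WT and 40466 in KO, so most of the gap between the shares follows from the lengths of the lists. With both cut to the 53690 strongest regions, the shares away from gene starts were 64.1% of WT and 64.8% of KO regions. At gene starts they were 92.2 and 91.2%.

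Strength within a list went with sharing over its whole range. With each list cut into 10 equal bins by strength, 99.3% of WT and 100% of KO regions were shared in the strongest bin, and 26.5 and 36.9% in the weakest. By width, 26.7% of WT and 37.8% of KO regions of up to 250 bp were shared, against 99.4 and 100% of those over 5000 bp. Hence hardly any strong region belonged to 1 genotype. Among the 1000 strongest regions of a list, 1 in WT and 0 in KO had no counterpart, and among the 5000 strongest 31 in WT and 1 in KO. The best rank of a region without a counterpart was 112 in WT and 2542 in KO.

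**Figure D2:**
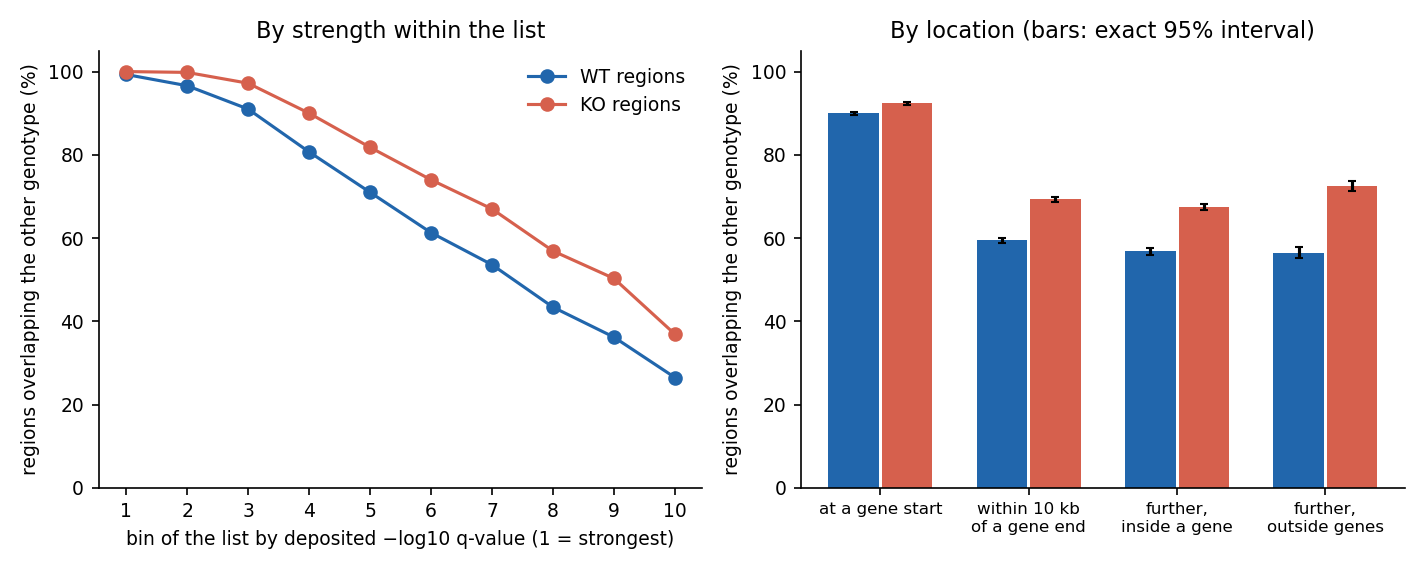
Share of H3K27ac regions overlapping the other genotype, in percent, by bin of equal size in each list from strongest (1) to weakest (10) on the left, and by location on the right with exact 95% intervals over regions. The share goes from 99.3 to 26.5% in WT and from 100 to 36.9% in KO, and gene start regions stand at 90.0 and 92.4%.

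Regions that lay opposite exactly 1 region of the other genotype show the change in width without splitting. At gene starts 11091 such pairs had median widths of 1943 bp in WT and 1965 bp in KO, with a median difference of 34 bp (KO minus WT). Inside genes, over 10000 bp from a gene end, 7313 pairs had 1266 and 1113 bp, a median difference of -88 bp. The KO region was the wider in 52.7% of pairs at gene starts and in 44.4% inside genes. Narrowing by at least 1000 bp was seen in 7.59% of pairs at gene starts and 13.3% inside genes, and widening by as much in 7.37 and 8.61%. Over all regions away from gene starts, paired or not, the median width was 825 bp in WT and 821 bp in KO. Regions touching several of the other genotype numbered 2784 in WT (4.49%) and 3059 in KO (5.70%).

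The other mark separated shared regions from the rest. H3K4me2 of either genotype overlapped 88.3% of the shared WT regions and 87.9% of the shared KO regions, but 45.7% of the regions called in WT alone and 40.5% of those called in KO alone. At gene starts the shares were 97.8 and 97.7% for shared regions and 60.0 and 63.8% for the others. Wider regions meet other regions more easily, and the shared regions were the wider ones. Regions called in 1 H3K27ac library were thus marked by H3K4me2 less often, in lists of which 79.6% (WT) and 71.8% (KO) were themselves shared.

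The widest regions of each list were marked over most of their length in the other list, and several of the widest KO regions lay in pieces in WT. The widest of all lay over Mtss1, a membrane-bending scaffold protein, on chromosome 15, with 113309 bp in WT (58969032 to 59082340) and 113690 bp in KO (58969316 to 59083005). In KO a region of 98447 bp lay over Rxra, the partner of many nuclear receptors (chromosome 2, 27670395 to 27768841), where WT had 6 regions covering 95% of it. The fibrinogen genes Fgg, Fga and Fgb on chromosome 3 shared a KO region of 57742 bp (82998356 to 83056097) opposite 4 WT regions that covered 89.0%. At Alb, which encodes serum albumin, the KO region of 53511 bp (chromosome 5, 90419459 to 90472969) stood opposite 9 WT regions covering 79.8%. These differences were of continuity more than of presence. Shb, an adaptor protein, had 54059 bp in WT and 61517 bp in KO. The other widest WT regions lay over Sh3bp5 (53536 bp), Adk (adenosine kinase, 46024 bp) and Cyb5a (cytochrome b5, 42533 bp), and KO regions covered at least 96.3% of each.

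Far from genes both lists held regions with no counterpart, and the strongest of each are given by their rank in their own list, which cannot be compared between lists. Over 10000 bp from every gene end lay 22554 WT and 18602 KO regions, of which 56.7 and 68.7% were shared. The strongest WT region there without a KO counterpart lay inside Scara5, a scavenger receptor that binds ferritin (chromosome 14, 65713738 to 65725467). It was 11730 bp wide, ranked 112 in its list and had an authors' fold of 12.1. The next lay on chromosome 5 (139871012 to 139872893, nearest coding gene Elfn1, rank 1120), in Usp29, an imprinted deubiquitinase gene, on chromosome 7 (6825038 to 6827240, rank 1250), near Acp7 on chromosome 7 (28645194 to 28647174, rank 1505), and in Abcc9, a potassium channel subunit of vascular cells, on chromosome 6 (142667530 to 142669553, rank 3407). The 5 strongest KO regions there without a WT counterpart had ranks from 11184 to 11502 in the shorter KO list. They lay on chromosome 18 (62071270 to 62072357, nearest coding gene Sh3tc2), in Trio on chromosome 15 (27931969 to 27932761), in Macrod2 on chromosome 2 (140762657 to 140764608), on chromosome 8 (108145718 to 108147125, nearest coding gene Zfhx3), and on chromosome 5 (145735919 to 145738497), 15783 bp from Cyp3a41a, a P450 gene of the female-biased list.

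Per gene, the mark was compared as the length covered within 5000 bp of the start, a window of 10001 bp. Of 20665 autosomal protein-coding genes, 16457 had an annotated start. For 3126 others the annotated end with more H3K4me2 was taken, called here the marked end, which can be the 3′ end, and 1082 had no such end and were left out. Over the 13362 genes with any mark the median covered length was 2563.5 bp in WT and 2523.5 bp in KO, and the median difference per gene was 42 bp. A gene was called shorter or longer when KO differed from WT by at least 1000 bp. The mark was shorter in KO at 1624 genes (12.2%) and longer at 1630 genes (12.2%), and within 1000 bp at 10108 (75.6%). The calls were as many in both directions. They were more frequent among well-covered genes, from 5.16% shorter and 4.15% longer in the fifth of genes with the least mark (mean of both libraries) to 15.6% and 19.8% in the fifth with the most. Among regions with a −log10 q-value from 10 upward the balance was lost, with 910 genes shorter and 2485 longer.

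A called change in H3K27ac did not go with a change of H3K4me2 in the same direction. Of the genes with shorter H3K27ac in KO, 12.5% had H3K4me2 shorter and 18.7% longer by the same rule. Of those with longer H3K27ac, 10.5% had it shorter and 18.4% longer. Over all genes with H3K27ac the shares were 6.67 and 13.1%. Both sets were thus above the background for both directions of H3K4me2.

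Few genes had the mark within 1000 bp of the start in 1 genotype alone. Of 19583 genes, 11677 (59.6%) were marked there in both libraries and 7109 (36.3%) in neither. WT alone had 383 (1.96%) and KO alone 414 (2.11%). Of the WT-only genes 133 (34.7%) had KO mark within 5000 bp, and of the KO-only genes 122 (29.5%) had WT mark there, so for these the mark lay nearby rather than nowhere. The regions involved were small, with a median of 469 bp within 1000 bp of the start in the WT-only genes and 453 bp in the KO-only genes. The KO-only number depended on strength, with 747 genes among regions with a −log10 q-value from 5 upward and 1730 at 10.

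The WT-only genes with the largest difference included those of renin, E-cadherin and a pair of cytochromes P450. Ren1 was covered over 8142 bp in WT and 1305 bp in KO. Mice with the 129 background can carry a second, near-identical renin gene, so reads at Ren1 are uncertain. Fam83a went from 6396 to 383 bp, Cdh1 (E-cadherin, the junction protein of epithelia) from 6599 to 605 bp, and Wfdc1 (a secreted protease inhibitor-like protein) from 7667 to 2449 bp. Fam83a had 209 bp more in KO when only regions with a −log10 q-value from 10 upward counted. Cyp2u1 (a P450 of fatty acid metabolism on the male-biased list, 5420 bp), Cyp26b1 (5072 bp) and Slc15a5 (a peptide transporter family member, 4780 bp) had no mark in KO at all. For Fam83a, Cdh1, Wfdc1 and Cyp2u1 the marked end was used.

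Cytochrome P450 genes of the female-biased list were prominent among the KO-only genes with the largest difference. Cyp2b9 was covered over 1285 bp in WT and 9322 bp in KO. Cyp2a4 had 0 and 4871 bp, Cyp2b13 had 0 and 4084 bp, and Cyp3a44 had 144 and 4390 bp. These 4 are on the female-biased list. Cyp2c40, a P450 of arachidonic acid metabolism that is not on that list, had 0 bp in WT and 4715 bp in KO. Slc45a2, a transporter of pigment cells (1717 and 6657 bp, marked end), and Ube2d2b, a ubiquitin-conjugating enzyme gene (3779 and 7795 bp), also belonged here. Cyp2a4, Cyp2b9, Cyp2b13, Cyp2c40 and Cyp3a44 lie in clusters of closely similar genes, so the copy a read came from can be uncertain.

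**Figure D3:**
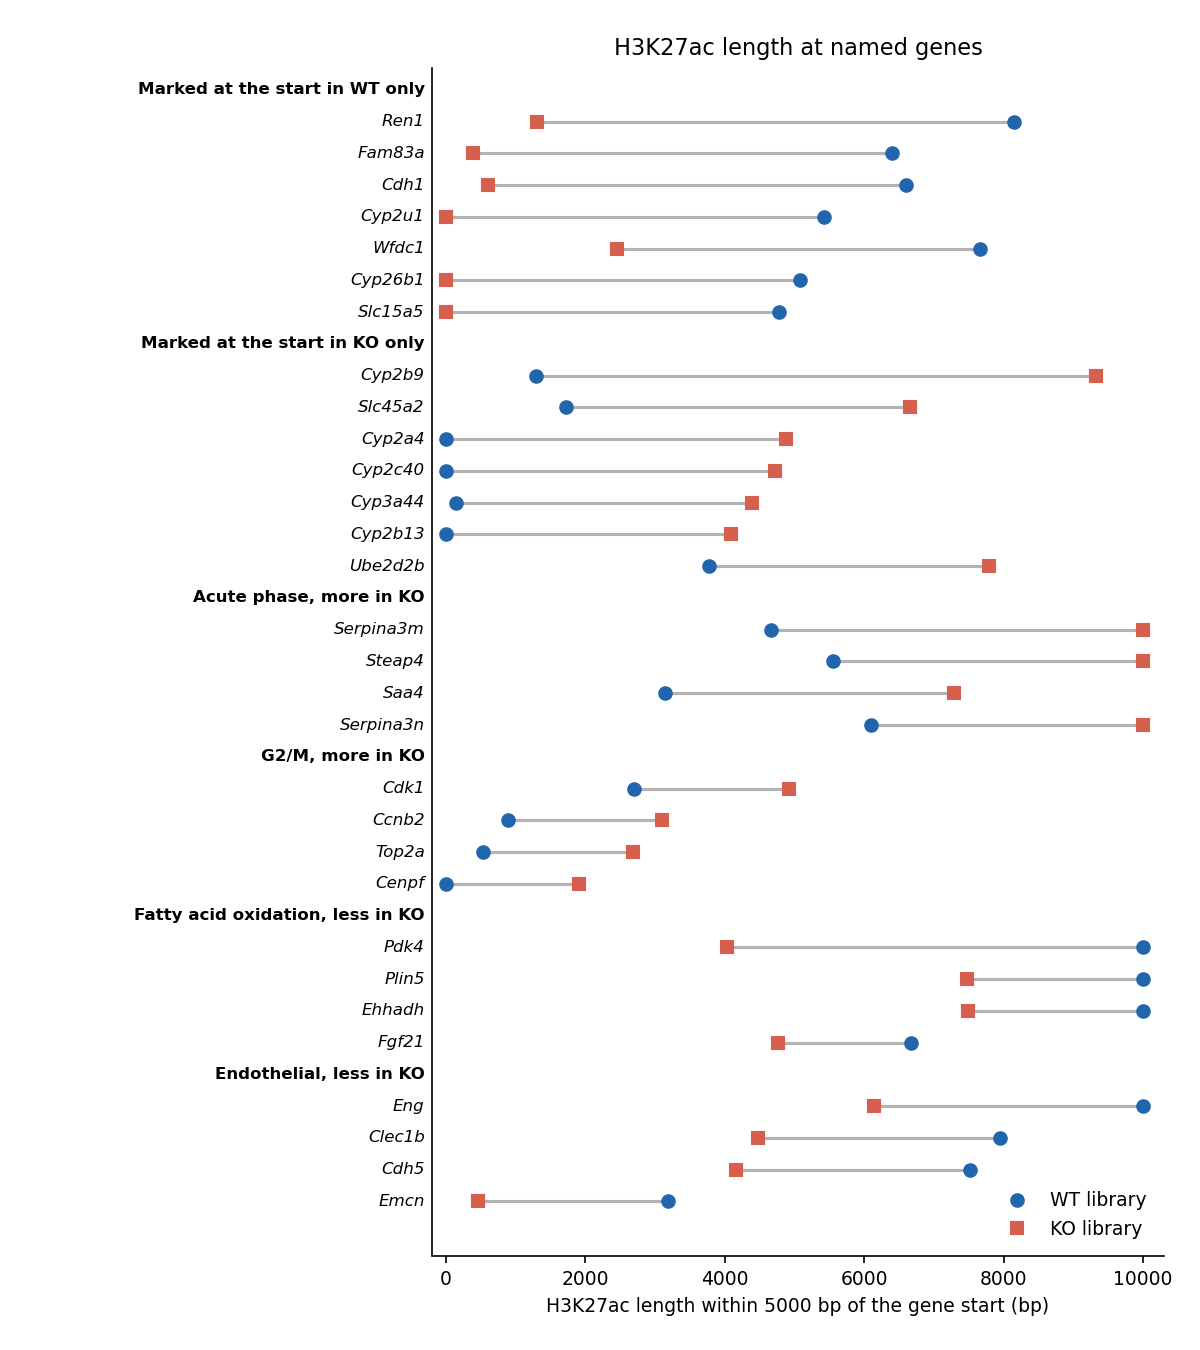
H3K27ac length in bp within 5000 bp of the gene start (x axis, window 10001 bp) in the WT library (circles) and the KO library (squares) for genes chosen by the naming rule from 6 sets. Cyp2b9 goes from 1285 bp in WT to 9322 bp in KO and Ren1 from 8142 to 1305 bp.

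Sex-biased liver genes on the autosomes differed along with the sex chromosome signal. Of 16 marked male-biased genes, 10 (62.5%) were shorter in KO and 1 (6.25%) longer, with a median difference of -1672 bp. Among all genes in the fifth of similar length 19.3% were shorter and 18.4% longer. Cyp7b1, an oxysterol hydroxylase of bile acid synthesis, had 9076 bp in WT and 1292 bp in KO. Elovl3, a fatty acid elongase, had 6152 and 473 bp, and Cyp2d9, a steroid hydroxylase, 9552 and 4636 bp. Mup20, which encodes a male pheromone protein, went the other way with 4148 and 5762 bp, and it had 657 bp less in KO when the window was widened to 10000 bp. In the fifth of all genes that holds the female-biased list's typical length, 386 of 2672 (14.4%) were shorter and 320 longer. Of 21 marked female-biased genes, 11 (52.4%) were longer and 3 (14.3%) shorter, with a median difference of 1137 bp. The 3 shorter ones were Cyp17a1 (a steroid hydroxylase, 7053 and 5273 bp), Cux2 (a female-specific homeobox factor of liver, 2395 and 1072 bp) and Acot3 (an acyl-CoA thioesterase, 4999 and 3738 bp). Under another setting the KO library had more at each of the 3, by 4493 bp at Cyp17a1 (−log10 q-value from 10 upward), 276 bp at Cux2 (both ends counted) and 43 bp at Acot3 (within 10000 bp). H3K4me2, a different mark from separate libraries, was shorter at 1 of these male-biased genes and longer at 2 (median -331 bp). It was shorter at 6 female-biased genes and longer at 3 (median -151 bp). Over all genes with H3K27ac, H3K4me2 was shorter at 6.67% and longer at 13.1%. Whether this bears on sex or on genotype was not tested. At Cyp2b9, H3K4me2 covered 7717 bp in WT and 8301 bp in KO.

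**Figure D4:**
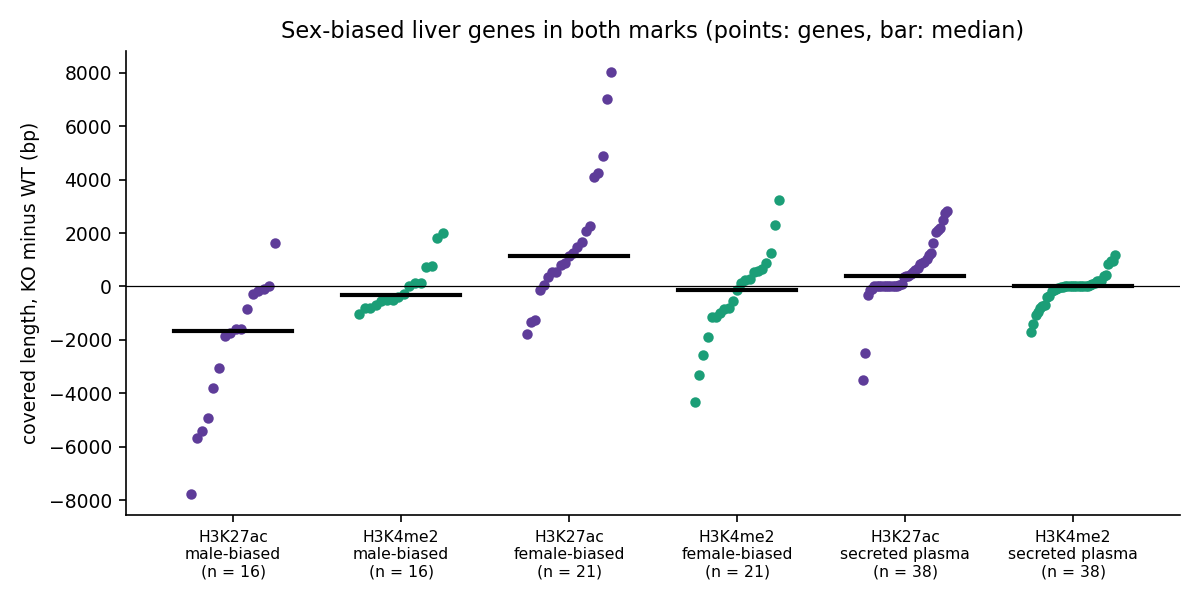
Covered length within 5000 bp of the start, KO minus WT in bp (y axis), for male-biased, female-biased and secreted plasma protein genes in both marks. Each point is a gene with H3K27ac, sorted within its column, and black bars are medians, which are -1672 and 1137 bp for H3K27ac and -331 and -151 bp for H3K4me2 in the male- and female-biased lists.

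Many acute phase genes had longer H3K27ac in KO. The acute phase genes are switched on in hepatocytes by interleukin-6 and related cytokines. All 22 on the list were marked, with medians of 6057 bp in WT and 7073 bp in KO, and 11 (50%) were longer against 1 (4.55%) shorter, where 12.2% of all genes were called each way. Serpina3m and Serpina3n, protease inhibitors, had 4658 and 6099 bp in WT and filled the window of 10001 bp in KO. Steap4, a metalloreductase, went from 5555 to 10001 bp, Saa4 (a serum amyloid A protein) from 3141 to 7288 bp and Lcn2 (lipocalin, an iron-sequestering protein) from 5323 to 8796 bp. Fgl1, a secreted fibrinogen-like protein, was the shorter gene, with 7981 and 5697 bp at its marked end and 3210 bp more in KO when both ends counted. The signalling genes of the list stayed close, with 5849 and 5905 bp at Stat3 and 6425 and 6049 bp at Il6st, the receptor subunit gp130. In the fifth of all genes with the most mark, which holds their typical length, 19.8% were longer. The list's median difference of 915.5 bp was 0 bp within 2000 bp of the start and 360 bp among regions with a −log10 q-value from 5 upward. Neighbours such as Saa1, Saa2 and Saa4 lie in a cluster, and their windows can overlap. H3K4me2 at the same genes was shorter at 8 and longer at 4, beside 6.67 and 13.1% of all genes with H3K27ac.

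Of 38 secreted plasma protein genes 10 (26.3%) were longer and 2 (5.26%) shorter, where 19.8% of all genes in the fifth with the most mark were longer. The median difference of 374.5 bp was 0 bp within 2000 bp of the start and with neighbouring regions merged. Longer were Plg (plasminogen, 7158 and 10001 bp, marked end), F10 (coagulation factor X, 5404 and 8164 bp) and F7 (coagulation factor VII, 1699 and 4202 bp). Shorter were the complement genes C9 (10001 and 6504 bp) and C8a (6145 and 3650 bp), of which C8a had 126 bp more in KO within 2000 bp. Alb, Apoa1, Trf and Ttr, which encode albumin, an apolipoprotein, transferrin and transthyretin, filled the window in both libraries, so no difference could be seen there. The same held for Ahsg, Apoc3, Apoc4, Fgb, Fgg, Gc and Itih3 of this list. Of other hepatocyte markers, Hnf4a was longer in KO (6187 and 7940 bp) and Cyp2e1, a P450, was shorter (10001 and 7296 bp). These hepatocyte markers were thus marked in both libraries, though not all over the same length.

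Genes of fatty acid oxidation and ketogenesis had shorter H3K27ac in KO. This programme burns fat in fasting under the nuclear receptor Ppara. Of 26 marked genes, 10 (38.5%) were shorter and 2 (7.69%) longer, and 18 of 26 had less of the mark in KO by any amount. In the fifth of all genes with the most mark, which holds the list's typical length, 15.6% were shorter and 19.8% longer. Medians were 8064 bp in WT and 6937.5 bp in KO, and the median difference was -566.5 bp. Pdk4, a kinase that blocks glucose oxidation, filled the window in WT (10001 bp) and had 4034 bp in KO. Plin5, a lipid droplet protein, had 10001 and 7470 bp, Ehhadh, a peroxisomal enzyme, 10001 and 7489 bp, and Fgf21, a fasting hormone, 6672 and 4762 bp. The subunits of the mitochondrial trifunctional protein, Hadha (10001 and 8623 bp) and Hadhb (10001 and 8484 bp), share a promoter region and are not separate measurements. Longer were Cd36, a fatty acid transporter on the female-biased list (2315 and 4386 bp), where the difference was -603 bp with both ends counted, and Acadvl, an acyl-CoA dehydrogenase (2907 and 4322 bp). Ppara itself had 9872 and 9764 bp. The list's median was 0 bp within 2000 bp of the start and -193.5 bp with neighbouring regions merged. H3K4me2 at these genes went the other way, with 13 longer and 0 shorter in KO and a median difference of 1013 bp. Over all genes with H3K27ac, H3K4me2 was longer at 13.1% and shorter at 6.67%, with a median difference of 125 bp.

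Lists of mitotic and replication genes had longer H3K27ac in KO, at the starts themselves. At the time of collection hepatocytes of a regenerating liver are entering the cell cycle. Of 41 marked G2/M and mitosis genes, 13 (31.7%) were longer and 0 shorter, and 37 of 41 had more of the mark in KO by any amount. Their medians were 1363 bp in WT and 1997 bp in KO and the median difference was 749 bp. Among all genes in the fifth with a similar mean length (1197.5 to 2040.5 bp) the median difference was 78 bp, and 6.74% were longer. Cdk1, the mitotic kinase, had 2694 and 4918 bp, and -717 bp was its difference when both gene ends counted. Ccnb2 (cyclin B2) went from 887 to 3093 bp, Top2a (topoisomerase II alpha) from 537 to 2688 bp, and Cenpf (a kinetochore protein) from 0 to 1904 bp. Mki67, the proliferation marker, had 1399 and 2283 bp, and Plk1, a mitotic kinase, 1301 and 3032 bp. The median difference of the list was 601.5 bp within 2000 bp of the start and 1670.5 bp among regions with a −log10 q-value from 10 upward, where that of all genes was 267 bp. In the H3K4me2 lists 4 of the 41 were shorter in KO and 1 longer, with a median of -119 bp. All genes with H3K27ac had 6.67% shorter and 13.1% longer in that mark, with a median of 125 bp.

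Of 40 genes of G1/S and DNA replication 9 (22.5%) were longer and 3 (7.5%) shorter, with a median difference of 341 bp. Over all genes 12.2% were called each way. The fifth of genes with a similar mean length (2041 to 3219.5 bp) had a median difference of 1 bp. Rrm2, a ribonucleotide reductase subunit, had 1423 and 5195 bp, Ccne2 (cyclin E2, marked end) 1861 and 4644 bp, Ccnd1 (cyclin D1, marked end) 6554 and 9094 bp and E2f2 (an activating E2F) 3887 and 5545 bp. Shorter were E2f8, an atypical E2F repressor (8269 and 5784 bp), Mcm7, a helicase subunit (3779 and 2677 bp), and Cdk4, the partner of cyclin D (4198 and 3165 bp), which had 30 bp more in KO within 2000 bp. E2f4 had 6543 bp in WT and 4280 bp in KO at its marked end, but 137 bp more in KO within 2000 bp. Of 22 CDK inhibitor and p53 target genes 6 (27.3%) were longer and 0 shorter (median 204 bp), beside 18.4% of all genes in the fifth of similar length that were longer, with Cdkn1a, which encodes p21, at 2389 and 4833 bp, Rbl1 (the pocket protein p107) at 2207 and 4225 bp and Sesn2 (a stress-induced regulator of growth) at 2604 and 4240 bp. Of 26 growth factor and Hippo genes 6 (23.1%) were longer and 0 shorter (median 319 bp), where 18.4% of all genes in the fifth of similar length were longer. They were led by Irs2, an insulin signalling adaptor (6703 and 9589 bp).

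**Figure D5:**
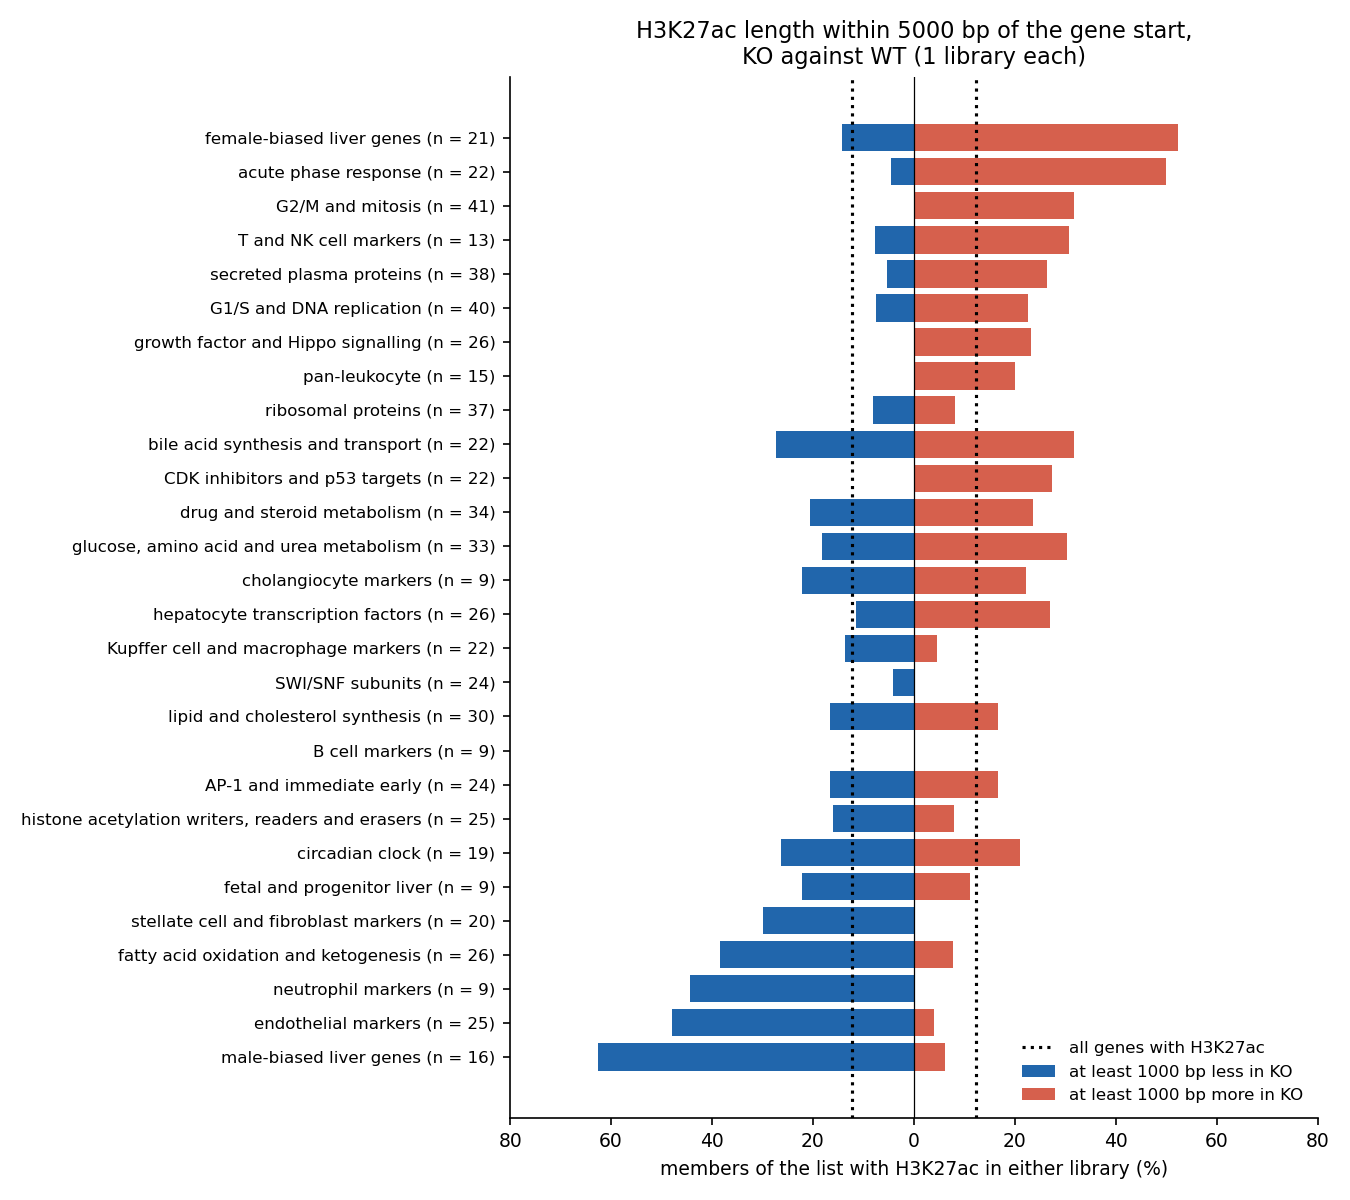
Share of marked members of each of 28 gene lists with at least 1000 bp less (left, blue) or more (right, red) H3K27ac in KO, in percent, sorted by median difference, with dotted lines at the 12.2% of all genes called each way. Female-biased, acute phase and G2/M lists lie at the top and male-biased and endothelial lists at the bottom.

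Other hepatocyte lists were mixed. Of 26 hepatocyte transcription factors 7 (26.9%) were longer and 3 (11.5%) shorter, with a median difference of 75 bp. In the fifth of all genes with the most mark, which holds the list's typical length, 19.8% were longer and 15.6% shorter. Longer were Nr5a2 (a nuclear receptor of bile acid synthesis, 5021 and 7058 bp), Hnf4a (the master regulator of hepatocyte identity, 6187 and 7940 bp), Hlf (2599 and 4301 bp) and Nr2f6 (7550 and 8965 bp). Shorter were Nr1h4, the bile acid receptor FXR (9275 and 6234 bp), Tbx3 (6717 and 4956 bp, marked end) and Dbp, a clock-controlled factor (6397 and 5129 bp). Cebpa had 8073 and 7955 bp.

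Bile acid genes split, with 6 shorter and 7 longer of 22. Among the longer, Abcg5 (4597 and 5642 bp) and Abcg8 (4707 and 5752 bp) have starts close together and are not separate measurements. In the fifth of all genes with the most mark, which holds the typical length of most lists in this paragraph, 15.6% were shorter and 19.8% longer. The enzymes Cyp8b1 (8545 and 5180 bp) and Cyp7a1 (the rate-limiting enzyme, 5419 and 4087 bp at its marked end, 1340 bp more in KO with both ends counted) were shorter. The reductase Akr1d1 (4204 and 6614 bp) was longer. Of the uptake carriers, Slc10a1 (7184 and 10001 bp) and Slco1a4 (5255 and 8385 bp) were longer and Slco1a1, of the male-biased list, was shorter (8116 and 6535 bp). Of 34 drug and steroid metabolism genes 7 were shorter and 8 longer, and 6 and 6 of 28 without the genes of the sex-biased lists. Shorter here were Sult2a8, a sulfotransferase (9982 and 5804 bp), Ces3a, a carboxylesterase (10001 and 6991 bp), and Por, the electron donor of all microsomal P450 enzymes (10001 and 7226 bp). In lipid and cholesterol synthesis 5 of 30 were shorter and 5 longer. The regulators Srebf2 (8151 and 5031 bp), Srebf1 (7511 and 5821 bp) and Thrsp (6339 and 3071 bp) were shorter, while the regulator Mlxipl, the glucose-sensing factor ChREBP (6708 and 8931 bp), and Acly, which supplies acetyl-CoA (5442 and 8076 bp), were longer. Glucose, amino acid and urea genes had 6 of 33 shorter and 10 longer, with Pklr (pyruvate kinase of liver) at 4001 and 6624 bp and Agxt (an aminotransferase) at 7333 and 5006 bp. Circadian clock genes had 5 of 19 shorter and 4 longer, and Ciart, a clock repressor, stood out with 7985 and 2283 bp. Ribosomal protein genes, a list of housekeeping genes, had 3 of 37 shorter and 3 longer. Immediate early genes had 4 of 24 each way, with Nr4a1 (4951 and 2755 bp) shorter and Gadd45a (1708 and 4797 bp) longer.

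Of 24 marked SWI/SNF subunits 1 was shorter and 0 longer, with a median difference of 36 bp. The shorter one was Smarca2, an ATPase of the complex (5775 and 4401 bp). Arid1a (chromosome 4, 133679008 to 133756769) had 7398 bp in WT and 7121 bp in KO, and its paralog Arid1b 4964 and 5097 bp. The floxed part of Arid1a is not named in the labels and the lists hold no coverage, so the deletion cannot be checked here. Of 25 histone acetylation genes 4 (16%) were shorter and 2 (8%) longer, beside 12.2% of all genes each way, with Hdac7, a deacetylase, at 5954 and 3691 bp. Hdac7 had 1461 bp more in KO with both ends counted.

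Markers of other liver cells were marked in both libraries, although hepatocytes had been isolated, and some lists differed between the genotypes. In such material fewer cells of a type and less mark per cell cannot be told apart. Of 25 marked endothelial genes 12 (48.0%) were shorter in KO and 1 (4%) longer, the list's summed length was 147335 bp in WT and 120897 bp in KO, and the median difference was -852 bp. Among all genes in the fifth of similar length 15.6% were shorter and 19.8% longer. Eng (endoglin) went from 10001 to 6137 bp, Cdh5 (VE-cadherin, marked end) from 7511 to 4164 bp, Pecam1 from 7141 to 5080 bp and Emcn (endomucin) from 3181 to 454 bp, whereas Stab2, a marker of sinusoidal endothelium, had 7325 and 7345 bp and Vwf 0 in both. Clec1b had 7942 and 4481 bp, but among regions with a −log10 q-value from 5 upward it had 4481 bp more in KO. Flt4 was the longer gene (4503 and 5637 bp) and had a difference of -3671 bp at that setting. The list's median was -101 bp within 2000 bp of the start, and among regions with a −log10 q-value from 10 upward only 1 of its genes was left. H3K4me2 gave the opposite direction, with 13 endothelial genes longer, 0 shorter and a median difference of 1100 bp. Over all genes with H3K27ac, 13.1% were longer and 6.67% shorter in H3K4me2, with a median difference of 125 bp.

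Stellate cell and fibroblast genes had 6 of 20 (30.0%) shorter and 0 longer, with a summed length of 74050 bp in WT and 56917 bp in KO. Among all genes in the fifth of similar length 19.3% were shorter and 18.4% longer. Hand2, a stellate cell factor, had 10001 and 7047 bp, Reln (reelin) 4691 and 1810 bp and Pdgfrb, the PDGF receptor, 4974 and 2206 bp, while the contractile gene Acta2 was at 0 in both libraries. Neutrophil genes had 4 of 9 shorter and 0 longer, led by Elane (3880 and 1424 bp) and Padi4 (3675 and 1433 bp), with Ly6g and S100a9 at 0 in both. The fifth of all genes that holds the typical length of the neutrophil and of the T and NK cell lists had 6.18% shorter and 6.74% longer. Macrophage genes had 3 of 22 shorter and 1 longer, with summed lengths of 88580 and 85805 bp and a median difference of 46 bp, which was -4261 bp over the 8 genes left among regions with a −log10 q-value from 5 upward. B cell genes had 0 of 9 each way, with 8184 and 7763 bp. T and NK cell genes had 4 of 13 longer and 1 shorter, but their median of 580 bp turned to -313 bp within 10000 bp and was below 0 in 4 alternatives in all. Pan-leukocyte genes had 3 of 15 (20.0%) longer and 0 shorter, near the 18.4% of all genes in the fifth of similar length that were longer. Among the longer was Ptprc, the leukocyte antigen CD45 (2591 and 4019 bp). In H3K4me2 the T and NK cell and the pan-leukocyte lists had 7 and 9 genes shorter in KO and 0 longer. Over all genes with H3K27ac, 6.67% were shorter and 13.1% longer in H3K4me2. The 2 marks came from separate libraries and gave opposite directions for endothelial and pan-leukocyte genes. The part of these cells in the differences at hepatocyte genes was not tested. Cholangiocyte genes had 2 of 9 shorter and 2 longer and fetal liver genes 2 of 9 shorter and 1 longer, with Sox9, a biliary and progenitor factor, at 1864 bp in WT and 0 in KO. In the fifth of all genes with the least mark, which holds their typical length, 5.16% were shorter and 4.15% longer.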

How the data were processed

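H3K27ac was measured by ChIP-seq in 1 library per genotype. The authors deposited 1 broadPeak list per library, and in the broadPeak form each region has a fold enrichment (ratio), a −log10 p-value, a −log10 q-value and a score, of which fold and −log10 q-value were used here. The submitters' processing notes name Bowtie2 2.2.3, Picard, MACS2 2.0.10.20131216, HOMER and build mm10, without roles. Inputs were not used here, and E2f4 lists enter only the count of all peaks. A weaker or shallower library yields fewer regions.

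Groups came from the sample titles. Overlap was at least 1 bp. Gene positions came from RefSeq tables of GRCm38.p6: the annotated start (of several, the one with more H3K4me2 within 2000 bp), otherwise the end with more H3K4me2. H3K27ac chose no position. Covered length within 5000 bp was compared per gene, and 1000 bp made a call. With 1 library per genotype no test was made. The 28 gene lists hold 740 entries, 737 of them in the table. Members and lists were chosen with earlier results of these data known.

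Named genes were, by rule, up to 8 with the mark in WT alone and 8 with it in KO alone by difference in length, up to 4 per list and direction, always Arid1a, Alb, Cebpa, Hnf4a, Ccnd1, Cdkn1a and E2f4, up to 5 distal regions per library and the 5 widest. Other list members given with values were picked with those values known. Alternatives tried were −log10 q-values of 5 and 10, lists of equal length, merged regions, regions of at least 500 bp, 50% overlap, other windows and both gene ends. The alternatives with annotated starts only and without sex-biased genes were chosen after seeing the data. Some genes that the rule names are not reported here. Functions were tested on simulated data. Python 3.11.15, numpy 2.4.6, pandas 2.3.3, scipy 1.17.1 and matplotlib 3.10.9 were used.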

Additional observations from a re-analysis of the deposited data

Results flagged for a closer look

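Signal outside the autosomal comparison differed between the H3K27ac libraries. The WT library had 9099 bp of H3K27ac on chromosome Y and the KO library 758 bp. At Xist the KO library had 3536 bp of H3K27ac and the WT library 0 bp. The labels give no sex, and the part of sex in the autosomal differences cannot be told apart from that of the genotype.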

How the results depend on the processing

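Shares of regions are for all, for gene start and for other regions, in that order. For WT they were 65.9, 90.0 and 58.1% and became 75.7, 91.6 and 54.1% among regions with a −log10 q-value from 5 upward, 71.8, 92.2 and 64.1% with lists of equal length, 67.9, 91.3 and 59.0% with merged regions, 70.6, 91.1 and 61.9% for regions of at least 500 bp, and 62.2, 88.5 and 53.7% with 50% overlap. At 10, all and other WT regions had 82.2 and 56.6%. For KO they were 75.4, 92.4 and 69.0% and became 86.5, 91.5 and 76.4% at 5, 72.7, 75.9 and 59.3% at 10, 72.0, 91.2 and 64.8% with equal lengths, 77.0, 93.1 and 70.0% merged, and 71.2, 90.9 and 63.9% with 50% overlap. All and other KO regions of at least 500 bp had 79.3 and 72.7%. Gene start shares were 85.8% (WT) and 89.5% (KO) within 2000 bp and 78.4 and 83.8% within 5000 bp, where other WT regions had 57.4%. Median widths were 2621 and 2741 bp at 5 and 3095.5 and 3118 bp at 10. KO-only genes numbered 747 at 5 and 1730 at 10. Shorter and longer genes were 910 and 2485 at 10 and 478 and 694 within 2000 bp, and 2633 were shorter within 10000 bp. The cause was not tested, beyond fewer or other regions and windows entering.

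Of 1135 values over 147 called genes, 1105 kept their direction, but 241 fell below the 1000 bp that made the call. Of 71 values over 9 lists 66 kept it and 11 fell below 500 bp. Reversed differences in bp were as follows. At 5 they were Acaca -2345, Cd14 1606, Clec1b 4481, Flt4 -3671, Cygb 337, Rora -295 and T and NK cells -2907. At 10 they were Fam83a 209, C8a 3400, Hdac3 1626, Brd3 3648, Cyp17a1 4493, Per2 5949, stellate cells 1026 and T and NK cells -7275 (1 gene left in either list). Merging gave Klf10 251. Both ends gave Fgl1 3210, Cyp7a1 1340, Cd36 -603, Btg2 -1918, Cdk1 -717, Hdac7 1461 and Cux2 276. Within 2000 bp C8a had 126, Klb -448, Btg2 -545, Cdk4 30, Cry2 -57 and E2f4 137. Within 10000 bp Btg2 had -2529, Il2rb -2016, Mup20 -657, Acot3 43 and T and NK cells -313. With annotated starts only, T and NK cells had -192. No paired analysis was possible because each genotype has 1 H3K27ac library, with no replicate number.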

Other observations

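Histone genes, taken by symbol after their values were seen, had longer H3K27ac in KO. Of 58 genes 39 (67.2%) were longer by at least 1000 bp and 0 shorter, with medians of 3578 bp in WT and 5339.5 bp in KO. Over all genes 12.2% were called each way. On chromosome 13, which holds the main histone clusters, 35 of 48 were longer, and on chromosome 3 it was 4 of 10. H3c11 (chromosome 13, 21782915 to 21783397) had 3188 bp in WT and 9186 bp in KO, and H3c10 had 3060 and 8697 bp. These genes, which supply the histones of replicating chromatin, lie close together, so neighbours share regions and windows and are not separate measurements. H3K4me2 at the same 58 genes was shorter at 2, longer at 3 and had a median difference of -7 bp. Over all genes with H3K27ac it was shorter at 6.67% and longer at 13.1%, with a median difference of 125 bp.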
